A study of Mus musculus with 12 samples.

Results

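The calpain family with Capn11 comprises 10 genes that were read in the amygdala of single mice, namely Capn11, Capn1, Capn2, Capn3, Capn5, Capn7, Capn10, Capn15, Capns1 and Cast. They were selected by symbol from the 47729 genes of the expression table, with earlier results of the same data known. Capn11 was chosen because its level differed between the anxiety groups, so its group values are a description and carry no test. All 10 had at least 10 reads in total and were among the 26963 genes that entered the tests. The mice were age-matched C57/BL6 females, an inbred strain, with no genetic change and no drug. Each mouse was run through a maze with open and closed arms (EPM), a box with a lit and a dark compartment (LD) and a test of contact with a stranger mouse (SIT), and both amygdalae of a mouse gave 1 stranded mRNA library. The groups were the 3 mice labelled less anxious (mice 3, 7 and 12), the 4 labelled anxious (mice 1, 4, 8 and 11) and the 4 labelled more anxious (mice 2, 6, 9 and 10). The study formed these groups from tertiles of a principal component of the same expression data, so they are not independent of expression, and a mouse's group need not follow each of its behavior scores. Mouse 6, labelled more anxious, spent 46.6% of its time in the light and 29.2% on the open arms, the highest values of the 11 mice on both. Mouse 5 has no group in the labels and entered no group comparison. The study had removed it as an outlier in its exploratory principal component analysis.

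Calpains are cysteine proteases that calcium activates and that cut their substrates at few sites, so that proteins are trimmed rather than degraded. Capn1 and Capn2 encode the catalytic subunits of the classical, widely expressed calpains, each of which pairs with the small regulatory subunit encoded by Capns1 and is held in check by calpastatin, the inhibitor encoded by Cast. In neurons this system is known for the cleavage of cytoskeletal proteins such as spectrin and of synaptic receptors and scaffolds. Other members are expressed in fewer tissues, among them Capn3, best known from skeletal muscle, and Capn11, best known from the testis.

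The promoters of the most and the least variable member are shown to place both genes. The sequences are the RefSeq promoters on GRCm38.p6, from 250 bases before to 50 bases after the start of transcription, with each CG dinucleotide in capitals. That of Capn11 lies at chr17:45659260-45659559 on the minus strand and that of Capns1 at chr7:30195104-30195403 on the minus strand.
Capn11: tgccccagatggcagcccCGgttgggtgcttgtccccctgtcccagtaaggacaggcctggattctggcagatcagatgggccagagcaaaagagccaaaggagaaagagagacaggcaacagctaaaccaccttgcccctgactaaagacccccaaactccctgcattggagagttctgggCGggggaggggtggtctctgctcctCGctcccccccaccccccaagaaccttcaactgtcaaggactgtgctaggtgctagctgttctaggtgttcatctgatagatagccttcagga
Capns1: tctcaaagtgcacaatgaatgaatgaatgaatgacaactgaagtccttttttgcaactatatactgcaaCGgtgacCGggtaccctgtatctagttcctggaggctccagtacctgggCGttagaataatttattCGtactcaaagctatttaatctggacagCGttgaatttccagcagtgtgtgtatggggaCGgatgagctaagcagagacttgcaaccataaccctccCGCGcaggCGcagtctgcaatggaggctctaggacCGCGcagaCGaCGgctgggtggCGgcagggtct
The Capn11 promoter held 3 CG dinucleotides, more than 23.3% of the 32851 RefSeq promoters of this length, and a GC content of 57.3%. The Capns1 promoter held 14, more than 63.7% of them, with a GC content of 50%. The median promoter had 7. In 9 of the 10 members a RefSeq promoter was matched, 16 sequences in all, and the numbers of CG dinucleotides ran from 2 in 1 of the Cast promoters to 27 in that of Capn2. The letters TATAAA, searched on both strands, occurred in 0 of these 16 sequences and in 13.6% of all promoters. Capn5 had no entry.

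Capn11 (ENSMUSG00000058626) is a protein-coding gene of 22 exons on chromosome 17, from 45630204 to 45659325 on the minus strand of mm10, and no annotated gene overlaps it. It was nearly absent from some amygdalae and well above that in others. The less anxious mice had 1, 8 and 4 Capn11 reads (mice 3, 7 and 12). Among the anxious mice, mouse 1 had 6, mouse 4 had 203, mouse 8 had 267 and mouse 11 had 5. The more anxious mice had 470, 88, 41 and 69 (mice 2, 6, 9 and 10). No mouse lay between 8 and 41 reads, and this gap passed through the anxious group, with 2 mice on either side of it. The totals per mouse behind these reads ran from 31745630 to 45142355 estimated counts.

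As read counts scaled to library size with TMM factors (CPM), Capn11 reached 0.0277, 0.201 and 0.104 in the less anxious mice, 0.172, 5.30, 7.23 and 0.151 in the anxious mice and 10.6, 2.64, 0.933 and 1.92 in the more anxious mice. All less anxious mice lay below all more anxious mice, while the anxious mice covered nearly the whole range of the other groups. The mean of the less anxious group was 0.111 ± 0.0870 CPM (SD, n = 3), that of the anxious group 3.21 ± 3.61 (SD, n = 4) and that of the more anxious group 4.02 ± 4.44 (SD, n = 4). The SD was above the mean in the anxious and the more anxious group. The fitted log2 difference between more and less anxious mice was 5.23 (SE 1.48, 95% interval 1.82 to 8.64). That between anxious and less anxious mice was 3.86 (SE 1.53, interval 0.34 to 7.38), and that between more anxious and anxious mice was 1.37 (SE 0.91, interval -0.73 to 3.47). These are the values from which the gene was chosen. They rest on 13 reads in the less anxious group. Without mouse 7 the difference between more and less anxious mice on the log2 scale was 3.98, and without mouse 6 it was 6.11. In bulk tissue, fewer cells that express a gene and less RNA per cell cannot be told apart.

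**Figure D1:**
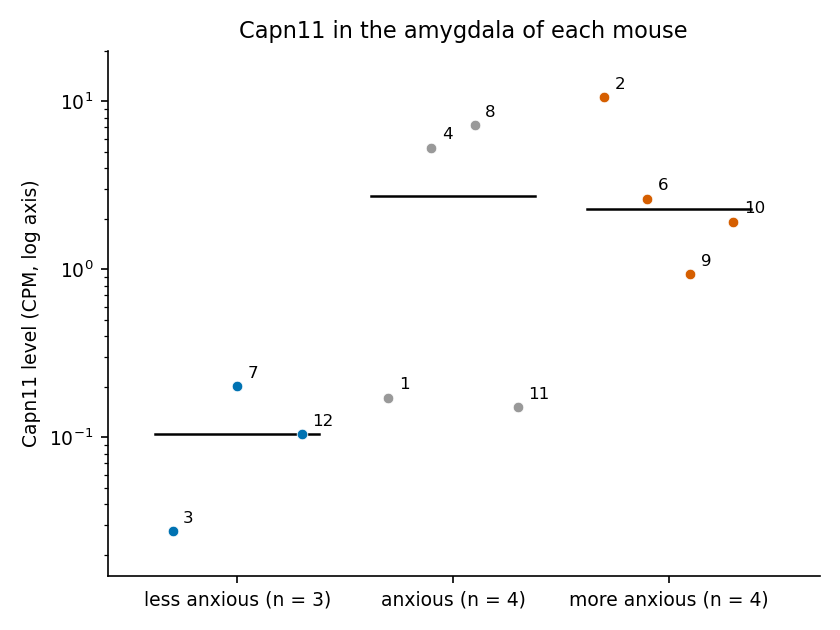
Capn11 level of each mouse in CPM on a log axis, by anxiety group, with the mouse number beside each point and a line at the group median (0.104, 2.74 and 2.28 CPM). The 3 less anxious mice and anxious mice 1 and 11 sit at or below 0.201 CPM, and the other 6 mice at or above 0.933 CPM.

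Because Capn11 is best known from the testis, a list of 15 germ cell genes was read in the same mice. Akap4, Ldhc and Smcp, which belong to late sperm development, had 0 reads in all 11 mice, Tnp1 had 0 in 10 of them, and 8 of the 15 genes had a median below 3 reads. The summed level of the list was 9.46 to 12.6 CPM in less anxious, 9.74 to 12.5 in anxious and 7.40 to 10.0 in more anxious mice, and it was made up mainly of Ddx4 (91 to 209 reads) and Dazl (74 to 181 reads). The ranges of this sum overlapped between less and more anxious mice. Of the 15 genes only Ddx4 had separate ranges, and it was lower in every more anxious mouse, opposite to Capn11. Its log2 difference between more and less anxious mice was -0.44 (SE 0.18), with an adjusted p of 0.697 (edgeR's quasi-likelihood test). Dazl overlapped, with a log2 difference of -0.09 (SE 0.19). The labelled tissue was checked with 7 markers of amygdala neurons, which summed to 1170 to 1912 CPM. Most of that sum was Slc17a7 (25206 to 61608 reads) and Gad1 (10147 to 14278 reads), which mark neurons of the forebrain in general. Genes more particular to amygdala nuclei were lower but read in every mouse, with 205 to 765 reads of Rspo2, 295 to 898 of Prkcd and 355 to 868 of Tac2. Some marker sums of other cells had separate ranges in less and more anxious mice. Among all genes tested, 3.83% were lower in every more anxious mouse than in any less anxious mouse. Those of astrocytes were 1064 to 1301 CPM in less and 798 to 1013 CPM in more anxious mice, those of endothelium 109 to 158 and 82.7 to 103 CPM, and those of the pituitary 3.96 to 4.70 and 2.28 to 2.89 CPM, in each case without overlap. Taken singly, only Slc1a3 of the astrocyte markers and Prl and Gh of the pituitary markers kept separate ranges, and no endothelial marker did. The pituitary marker Pomc had a log2 difference of 0.50 (SE 0.59), opposite to its sum. In these lists 0 markers were called (edgeR's quasi-likelihood test, smallest adjusted p 0.485). Pituitary markers reached 57.1 CPM in anxious mouse 4 and 17.8 CPM in anxious mouse 11, in which Capn11 was 5.30 and 0.151 CPM. Mouse 2, with the most Capn11 (10.6 CPM), had the lowest pituitary sum, 2.28 CPM. The sums of oligodendrocyte (2640 to 3405 and 2131 to 2898 CPM), microglial (164 to 199 and 137 to 172), choroid plexus (10.3 to 16.2 and 6.39 to 11.3), striatal (104 to 274 and 83.4 to 223) and skeletal muscle markers (8.22 to 8.83 and 8.47 to 11.4) overlapped between less and more anxious mice. Their part in the Capn11 values and in those of the other members was not tested.

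The genes around Capn11 showed much smaller differences. Within 100 kb, 13 annotated genes had a count and 12 of them entered the test of the groups, in which 0 were called (edgeR's quasi-likelihood test, adjusted p from 0.881). Their log2 differences between more and less anxious mice ran from -0.05 to 0.39, 10 of them above and 2 below 0, with a median of 0.0912 against 0.00903 over all genes tested. The nearest, Tmem63b, an ion channel gene 846 bp upstream of Capn11, had 104 to 137 CPM in all 11 mice and a log2 difference of 0.08 (SE 0.08). Hsp90ab1, a heat shock chaperone gene 56933 bp away, had 1368 to 1702 CPM and a log2 difference of -0.02 (SE 0.09).

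Levels per length, in CPM per kb of exon, put the shared subunit first. Capns1 had 59.3 ± 4.62 CPM per kb (SD, n = 11), and its lowest mouse, at 53.7, was above the highest value of any other member. Capn2 and Capn7 followed with 10.2 ± 1.01 and 10.2 ± 1.14 CPM per kb and on this scale did not differ beyond their spread, Capn2 being the higher of the pair in 5 of 11 mice. With the longest transcript of each gene as its length, Capn2 had 20.2 and Capn7 10.7 CPM per kb, so their distance depends on the length used. Capn5 (8.11 ± 0.849) was above Capn10 (5.92 ± 0.812) in all 11 mice, although their ranges met. Capn1 (4.15 ± 0.602) and Capn15 (3.94 ± 0.344) overlapped, with Capn1 higher in 7 of 11 mice. Capn3 had 1.72 ± 1.01 CPM per kb, Capn11 0.983 ± 1.31 and Cast 0.348 ± 0.0497. Capn11 was above Cast in 6 of 11 mice and below it in the others, so its place in this order changed from mouse to mouse. The length of Cast, 11470 bp over 13 annotated transcripts, is the longest of the members. With the longest transcripts the order of the 10 means was the same, although those of Capns1 (91.7), Capn2, Capn5 (9.89), Capn10 (8.87), Capn15 (4.33) and Cast (0.776 CPM per kb) moved by more than their spread.

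**Figure D2:**
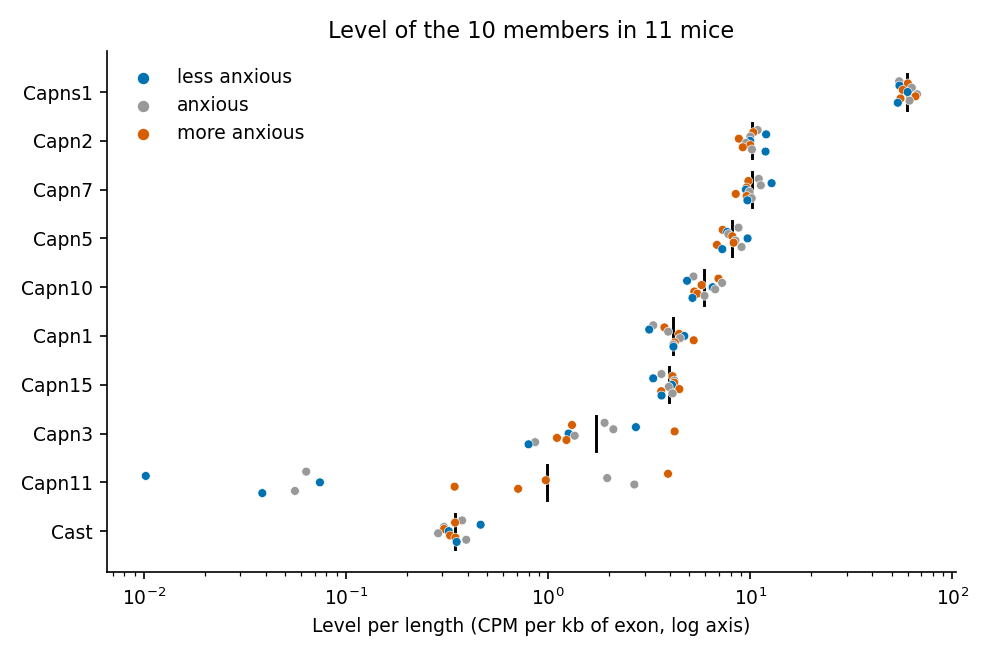
Level of the 10 members in CPM per kb of exon on a log axis, 1 point per mouse colored by anxiety group, with a bar at the mean of the 11 mice. Capns1 stands apart at 53.7 to 66.8, most members form narrow bands, and Capn11 spreads from 0.0102 to 3.92.

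Variation between mice differed as widely as level. The coefficient of variation (CV) of CPM over the 11 mice was 134% for Capn11, above 99.8% of the 15891 genes with a mean over 1 CPM, which restates the difference for which Capn11 was chosen. Capn11 had a mean over 1 CPM only through the 6 mice at or above 0.933 CPM. The CV of Capn3 was 58.7%, above 98.0% of these genes. The other members had CVs between 7.79% (Capns1) and 14.5% (Capn1), around or below the median gene at 14.3%. The largest value of Capn3 was 5.28 times its smallest and that of Capns1 1.25 times. No such ratio is given for Capn11, whose smallest value is a single read.

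The next question was whether the other members changed across the groups with Capn11. The test asked for any change over the 3 groups, with the score of each mouse on the leading principal component of expression as a covariate, and a gene was called at a Benjamini-Hochberg adjusted p under 0.05 over all genes. Of the 9 other members, edgeR's quasi-likelihood test called 0, while it called 0.00742% of all genes tested. At an unadjusted p under 0.05 there were again 0 of 9, against 6.4% of all genes, and the smallest unadjusted p was 0.110 (Capn2; edgeR's quasi-likelihood test). Adjusted p-values of the 9 ran from 0.855 to 0.995. DESeq2's likelihood ratio test also called 0 of the 9, while it called 197 genes in all. In 0 members were more anxious mice all above the less anxious (4.57% of all genes) or all below them (3.83% of all genes). The log2 differences between more and less anxious mice lay above 0 in 5 and below 0 in 4 of the 9, with a median of 0.0419 against 0.00903 over all genes. The widest 95% interval was that of Capn3.

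Of the classical calpains, Capn2 had 76.0, 63.3 and 75.5 CPM in the less anxious mice, 69.0, 63.4, 60.4 and 64.6 in the anxious and 65.6, 55.7, 63.4 and 58.2 in the more anxious mice. The less anxious mice 3 and 12 were the highest, but mouse 7 lay within the range of the more anxious. The log2 difference between more and less anxious mice was -0.20 (SE 0.09, 95% interval -0.39 to -0.01), and the test over the 3 groups gave an adjusted p of 0.855 (edgeR's quasi-likelihood test). Capn1 had 10.6, 15.8 and 13.9 CPM in less anxious, 11.1, 13.1, 15.0 and 13.9 in anxious and 12.6, 14.9, 17.5 and 14.1 in more anxious mice. Its groups overlapped, with a log2 difference of 0.12 (SE 0.16, interval -0.22 to 0.45), and the interval admits a rise or a fall.

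The partners of these subunits overlapped between the groups as well. Capns1 had 135, 149 and 133 CPM in less anxious, 135, 156, 165 and 152 in anxious and 149, 141, 163 and 137 in more anxious mice. The groups overlapped, with a log2 difference of 0.07 (SE 0.10, interval -0.14 to 0.28). Cast, which encodes the inhibitor, had 5.31, 3.70 and 4.04 CPM in less anxious, 4.30, 3.50, 3.28 and 4.51 in anxious and 3.97, 3.50, 3.75 and 3.99 in more anxious mice. Mouse 3 was the highest and the groups overlapped, with a log2 difference of -0.11 (SE 0.16, interval -0.46 to 0.23). Erap1, a peptidase gene that overlaps Cast on the other strand, had 4.91 to 6.89 CPM and was also highest in mouse 3. Whether the counting used the strand is not stated, so reads of the overlapped part may not be told apart.

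**Figure D3:**
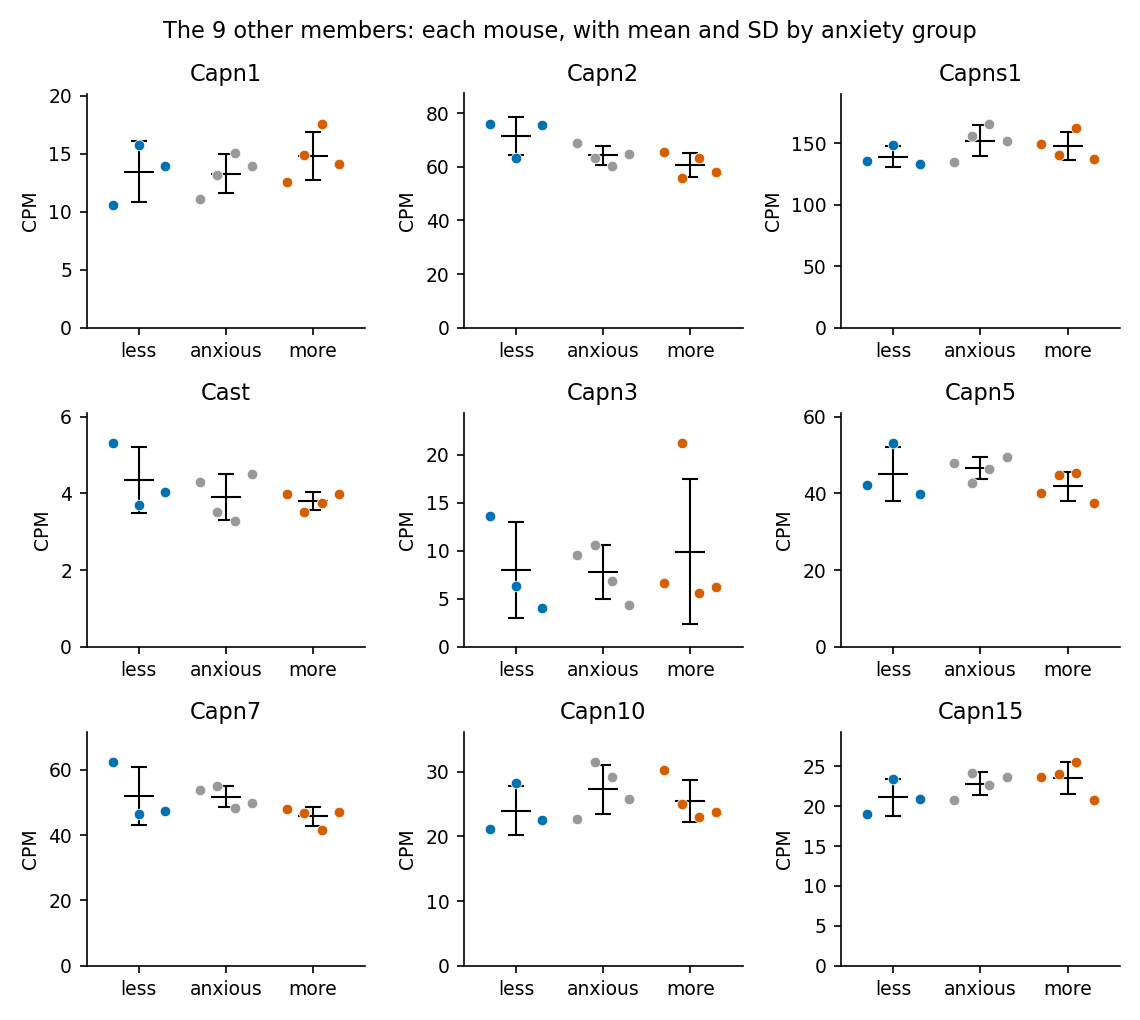
CPM of each mouse for the 9 members other than Capn11, by anxiety group (less anxious n = 3, anxious n = 4, more anxious n = 4), with the mean and SD in black and each axis from 0. In each of the 9 panels the less and the more anxious mice overlap, and Capn3 holds 1 more anxious mouse at 21.2 CPM.

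Capn3 had 13.6, 6.34 and 4.02 CPM in less anxious, 9.55, 10.6, 6.79 and 4.33 in anxious and 21.2, 6.59, 5.55 and 6.19 in more anxious mice, where the first of the more anxious values is that of mouse 6 and the others are those of mice 2, 9 and 10. The spread lay within the groups, and the log2 difference between more and less anxious mice was 0.08 (SE 0.69, interval -1.51 to 1.68). This difference was -0.35 without mouse 6, -0.52 without mouse 7 and 0.89 without mouse 3, so its sign rested on single mice. Ganc, a glucosidase gene that overlaps Capn3 on the same strand, had 9.06 to 15.2 CPM and 13.2 CPM in mouse 6, where other mice were higher.

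The remaining members are non-classical calpains, whose proteins lack the calcium-binding domain through which the classical pair binds the small subunit. Capn5 had 39.9 to 53.2 CPM in less anxious, 42.7 to 49.6 in anxious and 37.5 to 45.4 in more anxious mice (log2 difference -0.12, SE 0.11). Capn7, whose protein binds the ESCRT machinery of membrane scission, had 46.5 to 62.4, 48.4 to 55.2 and 41.5 to 47.9 CPM (log2 difference -0.16, SE 0.11). Capn10, a gene known from genetic studies of type 2 diabetes, had 21.1 to 28.3, 22.7 to 31.5 and 23.0 to 30.2 CPM (log2 difference 0.04, SE 0.12). Capn15, the mammalian counterpart of a fly gene for optic lobe development, had 19.0 to 23.5, 20.8 to 24.1 and 20.8 to 25.5 CPM (log2 difference 0.14, SE 0.11). All of these overlapped between less and more anxious mice, and each interval of the difference held 0.

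**Figure D4:**
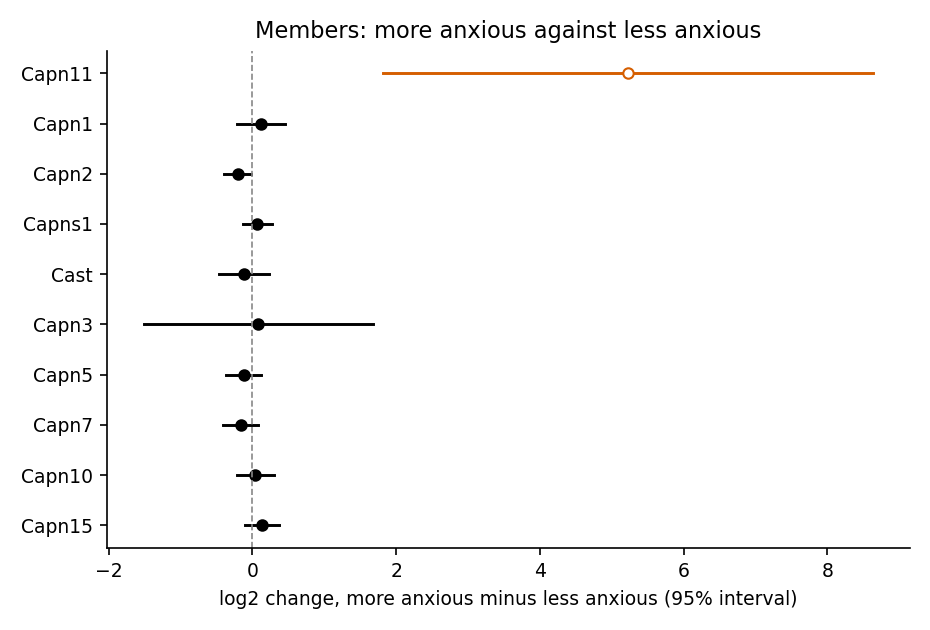
Fitted log2 difference between more and less anxious mice for each member, with its 95% interval, a dashed line at 0 and Capn11, which was chosen from this contrast, as an open circle. Capn11 lies at 5.23, and the other members lie between -0.20 and 0.14, with the widest interval for Capn3.

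Of 7 further calpain genes listed, 6 were in the table and 5 had enough reads to be tested, 0 of which were called by edgeR's quasi-likelihood test. Capn12, known from the hair follicle, was read in small amounts, with 12, 11 and 32 reads in less anxious (mice 3, 7 and 12), 34, 28, 19 and 26 in anxious (mice 1, 4, 8 and 11) and 39, 23, 79 and 81 in more anxious mice (mice 2, 6, 9 and 10). The less anxious mice had 0.481 ± 0.308 CPM (SD, n = 3), the anxious mice 0.752 ± 0.190 (SD, n = 4) and the more anxious mice 1.41 ± 0.746 (SD, n = 4), with overlap. The log2 difference of Capn12 between more and less anxious mice was 1.64 (SE 0.40), and the test over the groups gave an unadjusted p of 0.0031 and an adjusted p of 0.485 (edgeR's quasi-likelihood test). Capn9, known from the digestive tract, ranged from 3 to 97 reads, with its highest value in less anxious mouse 7. Capn6, whose protein lacks the catalytic cysteine, had 3.86 to 5.71 CPM. Capn8, Capn13 and the second small subunit Capns2 stayed at or below 0.363 CPM.

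A list of 20 genes for proteins known to be calpain substrates was read in the same fit. All 20 were tested, 0 passed the test in either direction (0.00742% of all genes) and 0 had an unadjusted p under 0.05 (6.4% of all genes; edgeR's quasi-likelihood test, smallest adjusted p 0.790), shares too near those of all genes to be read as a result about the list. The log2 difference between more and less anxious mice lay above 0 in 11 and below 0 in 9, with a median of 0.0164. Gria1, an AMPA receptor subunit, had 615 ± 77.7 CPM in the less anxious (SD, n = 3) and 523 ± 90.0 CPM in the more anxious group (SD, n = 4), and a log2 difference of -0.26 (SE 0.13). Dlg4, the scaffold PSD-95, had 661 ± 113 and 854 ± 210 CPM (0.41, SE 0.16), and Map2, a microtubule-binding protein of dendrites, 1468 ± 73.1 and 1189 ± 95 (-0.27, SE 0.12). Transcript levels say nothing of cleavage of these proteins.

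The members were next compared with the 7 behavior measures of the labels, which were not made from expression. The study chose the component behind the groups for its correlation with the EPM and LD measures. Capn11 was chosen from those groups, so its values against these measures are not independent of that choice. The SIT ratios cover nested times, so the 7 measures are not separate evidence. Each measure was fitted as a standardized number over the 11 mice (10 for the SIT ratio of box to zone time at 3 min, which mouse 4 lacks), so a log2 value is the change per SD of the measure. Of the 70 tests of a member against a measure, edgeR's quasi-likelihood test called 0 after adjustment over all genes. Among all genes, 0.00742% were called for time in the light, 0% for distance in the light, 0% for the share of time on the open arms and 0% for entries into the arms, and 0.015%, 0.0111% and 0.0223% for the SIT ratio at 3, 5 and 10 min. At an unadjusted p under 0.05 there were 2 of 70, both of Capn3. The share of all genes at that level was 3.56% for time in the light, 5.84% for the distance run there, 5.9% for time on the open arms, 7.06% for entries, and 7.62%, 6.52% and 7.98% for the SIT ratio at 3, 5 and 10 min.

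Capn11 passed the test for none of the 7 measures. Its log2 change per SD was below 0 for all 7, and each 95% interval held 0. It was -0.60 (SE 0.59) for time in the light, -0.96 (SE 0.57) for the distance run there, -0.68 (SE 0.68) for time on the open arms and -0.79 (SE 0.60) for entries. For the SIT ratio it was -0.45 (SE 1.13) at 3 min, -0.51 (SE 0.65) at 5 min and -0.82 (SE 0.75) at 10 min. The adjusted p-values ran from 0.817 to 0.999 (edgeR's quasi-likelihood test). Mouse 2, with the most Capn11 at 10.6 CPM, had the fewest entries (6) and the least open-arm time (2.33%) of the 11 mice. Without mouse 2 the log2 change per SD was -0.0197 for entries, -0.0904 for open-arm time, -0.29 for time in the light and -0.60 for distance in the light, and for the SIT ratio at 3, 5 and 10 min 0.44, 0.0941 and -0.29. Mouse 3, with the least Capn11, had the highest SIT ratio at 10 min (2.62). Mouse 6 had 2.64 CPM of Capn11, and without it the value for time in the light moved the other way, to -2.18 (adjusted p 0.397, edgeR's quasi-likelihood test).

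The smallest p-value of the 70 was that of Capn3 against time in the light, which did not pass the adjustment. Mouse 6 had 21.2 CPM and 46.6% of its time in the light, mouse 3 had 13.6 CPM and 33.5%, and mouse 1 had 9.55 CPM and 32.6%. Mice 9 and 2, with the least time in the light (12.4% and 14.5%), had 5.55 and 6.59 CPM. The order was not strict, since the lowest Capn3 level, 4.02 CPM, was that of mouse 12, with 25.7% of its time in the light. The log2 change per SD of time in the light was 0.54 (SE 0.11, 95% interval 0.30 to 0.79), with an unadjusted p of 0.000358 and an adjusted p of 0.611 (edgeR's quasi-likelihood test), and for distance in the light it was 0.45 (SE 0.16, interval 0.11 to 0.79), with an unadjusted p of 0.0136 and an adjusted p of 0.837. DESeq2's likelihood ratio test called Capn3 for time in the light (adjusted p 0.0112), the only member that it called for any measure. For time in the light it called 15 genes in all. Without mouse 6, the mouse highest on both axes, the change was 0.31 for time (adjusted p 0.444, edgeR's quasi-likelihood test) and 0.23 for distance (adjusted p 0.632). With mouse 5, which had 16.3 CPM of Capn3 and spent 12.1% of its time in the light, it was 0.32 for time and 0.21 for distance.

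**Figure D5:**
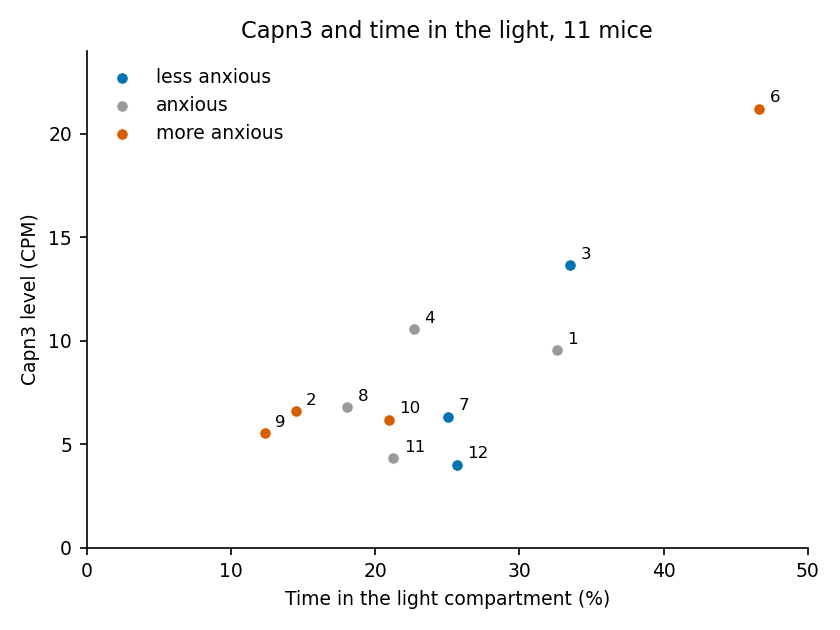
Capn3 level in CPM against the percentage of time in the light compartment, 1 point per mouse with its number and the color of its anxiety group. Mouse 6 is highest on both axes (46.6% and 21.2 CPM), and the mice under 30% lie between 4.02 and 10.6 CPM.

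Relations among the members were computed for Capn11 with each of the other 9 and for Capns1 with Capn1, Capn2 and Cast, 12 in all, on log2 CPM over the 11 mice. No sequencing batch is named in the labels, and the groups are too small for values within them. Capn11 and Cast had r = -0.726 (permutation p = 0.00887, adjusted 0.106) and rho = -0.782 (permutation p = 0.00649, adjusted 0.0389), and r = -0.803 without mice 2 and 3, the farthest from the median of Capn11. Capn11 and Capn10 had r = 0.711 (permutation p = 0.0189, adjusted 0.111) and rho = 0.8 (permutation p = 0.00486, adjusted 0.0389), and r = 0.542 without these mice. Capn11 and Capn2 had r = -0.661 (permutation p = 0.0279, adjusted 0.111) and rho = -0.582 (permutation p = 0.0665, adjusted 0.160), and r = -0.701 without them. The other 9 relations had r between -0.570 and 0.578, with adjusted permutation p-values of at least 0.154 for r or rho. Capn11 was chosen for its group difference and the permutations ignored the groups, so its relations are not independent of that choice. The share of all genes related to Capn11 as strongly was not determined, so whether these values are particular to the family is not known. Since Capn11 has a gap between 8 and 41 reads, r was also taken within the 6 mice above it, a choice made after seeing the data. There it was 0.911 for Capn10 (exact permutation p = 0.0278, n = 6), -0.225 for Cast (exact permutation p = 0.675) and 0.336 for Capn2 (exact permutation p = 0.503). These 6 mice were picked by the level of Capn11 itself and 9 relations were computed in them with no adjustment, so the values are given as a description only.

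Among the 15890 other genes with a mean of at least 1 CPM, those whose log2 CPM was most like that of Capn11 over the 11 mice, by Pearson r, were Sec31a (0.978), Fam155a (0.931), Snx3 (0.927), Aaas (0.922) and U2af2 (0.920). These are the highest of many and carry no test, and the points share their libraries. Sec31a, a coat protein gene of vesicles that leave the endoplasmic reticulum, had 73.5, 82.7 and 74.4 CPM in less anxious (mice 3, 7 and 12), 81.3, 104, 99.1 and 80.4 in anxious (mice 1, 4, 8 and 11) and 104, 92.7, 89.8 and 94.4 in more anxious mice (mice 2, 6, 9 and 10). The anxious mice 4 and 8, high in Capn11, were also the higher pair of their group for Sec31a. This restates the likeness by which Sec31a was picked. The range of Sec31a was narrow beside that of Capn11, 73.5 to 104 against 0.0277 to 10.6 CPM.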

How the data were processed

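Single-end reads of 75 bp came from amygdala libraries of 12 female C57/BL6 mice, sequenced on 1 run. The authors trimmed reads where needed, estimated transcript abundance with Salmon on mm10 and summed it to genes with tximport. They deposited estimated counts for 47729 genes as whole numbers without normalization (0 values were not whole). The annotation release, tool versions and use of the strand are not given in the sources used here. Names and coordinates came from GENCODE M21 (47310 genes with an entry) and promoters from RefSeq. Reads that fit more than 1 transcript are split by Salmon, so counts of overlapping genes are less certain.

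The members and gene lists were chosen with earlier results of these data known. The genes to be named were the members, the other calpain genes, the 4 substrate genes with the smallest p across the groups (1 of them is not reported here), genes within 100 kb of Capn11 or overlapping a member, and the 5 genes most like Capn11. Replicates are separate mice. All 55 pairs of the 11 libraries differed by more than sampling noise (mean chi-square per gene at least 18.9). Totals ran from 31745630 to 45142355, and the precision of low counts is limited by counting error.

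Tests were run in edgeR 4.0.16 and DESeq2 1.42.0 (R 4.3.3), and summaries and figures were made with matplotlib 3.10.9, pandas 2.3.3, scipy 1.17.1 and numpy 2.4.6 (Python 3.11.15). edgeR's quasi-likelihood F-test (robust, TMM) was fitted to the 26963 genes with at least 10 reads over 11 mice, with PC1 of variance-stabilized counts (20.2% of the variance) as a covariate for the groups and both group coefficients tested together. Each behavior measure was fitted alone. A gene was called where its p, adjusted by Benjamini-Hochberg, was under 0.05. Log2 CPM used a prior count of 2. Correlations used 100000 permutations, two-sided. On simulated data 200 of 200 changed genes were recovered, with 6 false calls for the groups and 7 for open-arm time. The changed genes were drawn only from those above a minimum mean count, and all genes had the same dispersion. The simulation therefore does not speak for genes as variable as Capn11 and Capn3. Since all 200 were recovered, this run does not show how small a difference could be detected, and that size was not determined. Alternatives covered size factors, count filter, test, covariate, robust option, ranks, mouse 5, prior count, transcript length and each mouse left out.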

Additional observations from a re-analysis of the deposited data

Results flagged for a closer look

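A single mouse stood far from the rest of its group in 2 of the 20 sets of 4 mice examined (each of the 10 members in the anxious and in the more anxious group), and chance marks about 1 set in 20. Capn3 had 21.2 CPM in more anxious mouse 6, whereas the other more anxious mice had 5.55 to 6.59 CPM. Capn7 had 41.5 CPM in more anxious mouse 9, below the 46.9 to 47.9 CPM of the others in its group. The less anxious group, with 3 mice, was too small for this check.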

How the results depend on the processing

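No paired analysis was possible because replicate numbers only name the mice. Across the groups, calls among the 9 members other than Capn11 stayed at 0 under every alternative run. Capn11 was chosen from that contrast and was not counted there. Against behavior, calls among all 10 members stayed at 0 except with DESeq2's likelihood ratio test, which called 1 (Capn3, time in the light). Counts over all genes moved. For the groups (2 in the main fit) they were 9 without the count filter, 0 with filterByExpr, 197 with DESeq2, 0 without PC1 and 1 with the robust option off. For time in the light (2) they were 4, 0 and 15 with the filters and DESeq2, 0 with ranks and 1 with mouse 5. Distance in the light (0) gave 26 with DESeq2, and entries (0) gave 45. Open-arm time (0) gave 1 with DESeq2 size factors, without the filter and with mouse 5, and 43 with DESeq2. The SIT ratio gave 11, 1 and 161 without the filter, with filterByExpr and with DESeq2 at 3 min (4), 7, 0 and 43 at 5 min (3), with 0 for ranks and 6 with mouse 5, and 10, 0 and 111 at 10 min (6), with 0 for ranks. The cause was not tested.

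With each mouse left out in turn, calls ran from 0 to 4 for the groups, 0 to 16 for time in the light, 0 to 14 for distance, 0 to 3 for open-arm time, 0 to 5 for entries, and 1 to 7, 1 to 5 and 1 to 9 for the SIT ratio at 3, 5 and 10 min. The log2 difference between more and less anxious mice changed sign for Capn1 (-0.0409 to 0.21), Capn3 (-0.52 to 0.89), Capn5 (-0.19 to 0.0346), Capn10 (-0.0343 to 0.10) and Capns1 (-0.0150 to 0.10), and the change of Capn11 per SD of the SIT ratio did so at 3 min (-0.89 to 0.44) and 5 min (-1.71 to 0.0941). That of Capn11 between the groups stayed between 3.98 and 6.11. The r of Capn11 and Capn3 was -0.0110 with mouse 5, and within the 6 mice high in Capn11 r changed sign with Capn1 (-0.781), Capn2 (0.336), Capn7 (0.661) and Capn15 (-0.162). These 6 mice were picked by the level of Capn11 itself, so their values are a description only. The smallest difference that could have been detected was not determined, and the 1 to 8 Capn11 reads of the less anxious mice limit the precision of its values.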

Other observations

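Mouse 5, which the labels put in no group and the study removed as an outlier, was low in 4 members on a scale set over all 12 mice. The share of all genes in which it lay below every other mouse was not determined, so this is not read as a trait of the members. It had 11.9 CPM of Capn10, against 21.0 to 31.5 in the other mice, 9.84 CPM of Capn1 (10.5 to 17.6), 17.0 CPM of Capn15 (18.8 to 25.6) and 125 CPM of Capns1 (135 to 166). It had 2 reads of Capn11, within the range of the others. Its Capn3 level of 16.3 CPM was exceeded by that of mouse 6 among the other mice. The total of mouse 5 was 32682574 estimated counts, and a read fell on 23768 genes in it, compared with 26378 to 28196 in the others.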
